A study of Homo sapiens with 4 samples.

Results

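Spans on the promoter side of 10 genes known for DNA hypermethylation in prostate cancer were examined by methylated DNA immunoprecipitation sequencing (MeDIP-seq). In this method an antibody against 5-methylcytosine (5mC) enriches methylated fragments. The genes were GSTP1, APC, RARB, RASSF1, CCND2, PTGS2, AOX1, HIC1, EDNRB and CDKN2A. Each was represented by a fixed span on its promoter side in the human genome build hg19, and its members were the deposited 5mC peaks overlapping that span by at least 1 bp. The spans are defined by position and not by the values measured in them. They ran from 8 to 64 kb, so a peak in a span need not lie at a promoter. They held 36 of the 296521 peaks of the knockout list and 34 of the 261657 peaks of the control list. Peaks were found in 9 of the 10 spans, and the EDNRB span held none in either list.

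The knockout group was C42B cells carrying the guide RNA sgPKCl/i (labelled PKCl/i KO), which targets the atypical kinase PKCλ/ι, the product of PRKCI. The control group was C42B cells carrying the guide sgC (labelled WT). C42B is an androgen-independent human prostate cancer line derived from LNCaP, and all cells were untreated. Each genotype gave 1 immunoprecipitated and 1 input library, so no difference between genotypes had a replicate check and no test was made. Whether the knockout cells were 1 clone or a pool was not given in the sources used here, and no expression was measured, so neither line identity nor silencing of the genes could be checked against transcripts. The files list no read totals. In their place stands the lowest local background of each list, called the floor here, which in the peak caller's model is the genome-wide mean pileup. It was 4.42 in the knockout and 2.92 in the control, a ratio of 1.51. The pileup is the number of immunoprecipitated fragments overlapping a peak's summit, and pileups were divided by their list's floor before the lists were compared.

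DNA methylation of CpG dinucleotides in the promoter of a gene is a heritable mark that accompanies silencing, and CpG-rich promoters are normally kept free of it. In prostate cancer a recurrent set of such promoters gains methylation, with GSTP1 the best known, and several of them are used as markers in tissue and urine. The antibody used in MeDIP recognises methylated cytosine in single-stranded fragments, so its signal grows with the number of methylated CpGs in a fragment as well as with the share of molecules methylated.

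The bases that the antibody could bind near some of these gene starts are shown by RefSeq sequences of GRCh38.p14, each running from 250 bases before to 50 bases after an annotated start, 5′ to 3′ on the gene's strand, with every CpG in capitals. Starts were matched for 8 of the 10 genes, 14 starts in all, and CCND2 and HIC1 were not matched. Among these 14 starts the number of CpGs ran from 1 to 36, and 8 starts exceeded the median of 14 CpGs over 35116 promoters of the same length. The GSTP1 start on chr11:67583562-67583861 (plus strand) was the richest with 36 CpGs, more than 87.3% of those promoters. The PTGS2 start on chr1:186680374-186680673 (minus strand) had 12, and the AOX1 start on chr2:200585764-200586063 (plus strand) had 22. APC is shown by the inner of its matched starts on chr5:112737635-112737934 (plus strand) with 23 CpGs, and EDNRB by the start on chr13:77918782-77919081 (minus strand) with 19. These 5 were chosen to set starts of genes with and without peaks side by side. The positions belong to GRCh38.p14 and cannot be set against the hg19 positions of the peaks, so neither distances from peaks to gene starts nor exons and introns under the peaks are given.

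GSTP1: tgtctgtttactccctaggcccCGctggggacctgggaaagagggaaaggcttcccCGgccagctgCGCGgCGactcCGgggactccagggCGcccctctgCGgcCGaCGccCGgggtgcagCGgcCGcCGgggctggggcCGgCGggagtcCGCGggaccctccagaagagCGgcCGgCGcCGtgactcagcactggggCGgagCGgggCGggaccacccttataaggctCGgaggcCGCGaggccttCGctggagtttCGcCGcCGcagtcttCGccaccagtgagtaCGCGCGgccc
PTGS2: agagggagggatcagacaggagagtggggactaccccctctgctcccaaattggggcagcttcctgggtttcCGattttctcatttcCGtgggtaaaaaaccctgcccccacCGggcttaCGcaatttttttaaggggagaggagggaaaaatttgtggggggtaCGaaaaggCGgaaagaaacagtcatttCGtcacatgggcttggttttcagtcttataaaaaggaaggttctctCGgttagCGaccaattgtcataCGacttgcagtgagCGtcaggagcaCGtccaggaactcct
AOX1: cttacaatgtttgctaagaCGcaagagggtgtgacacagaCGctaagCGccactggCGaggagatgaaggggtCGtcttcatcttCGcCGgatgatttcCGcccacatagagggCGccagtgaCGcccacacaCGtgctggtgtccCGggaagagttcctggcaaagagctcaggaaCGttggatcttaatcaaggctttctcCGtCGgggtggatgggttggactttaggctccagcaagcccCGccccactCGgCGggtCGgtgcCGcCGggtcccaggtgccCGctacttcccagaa
APC: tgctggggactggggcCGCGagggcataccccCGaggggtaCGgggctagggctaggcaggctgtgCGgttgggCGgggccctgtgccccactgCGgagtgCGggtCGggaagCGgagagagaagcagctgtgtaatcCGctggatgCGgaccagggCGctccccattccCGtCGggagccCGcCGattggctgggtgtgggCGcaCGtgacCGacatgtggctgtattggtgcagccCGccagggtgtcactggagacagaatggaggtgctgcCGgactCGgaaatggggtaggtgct
EDNRB: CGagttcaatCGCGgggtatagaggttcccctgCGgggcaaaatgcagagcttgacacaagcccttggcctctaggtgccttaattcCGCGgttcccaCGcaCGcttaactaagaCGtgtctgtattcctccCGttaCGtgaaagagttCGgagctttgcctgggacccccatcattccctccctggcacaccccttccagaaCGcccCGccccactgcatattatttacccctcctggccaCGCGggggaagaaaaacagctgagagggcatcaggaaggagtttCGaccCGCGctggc

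Of the other matched starts, those of CDKN2A had 28 and 26 CpGs and that of RASSF1 had 33. The RASSF1 start in the table was not the outermost start of the gene. The 4 starts of RARB had 33, 7, 2 and 1 CpGs, and the remaining starts of APC and EDNRB had 14 each.

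Methylated regions were denser in the spans than in the genome as a whole in both genotypes. Peaks covered 12.5% of the 213 kb of spans in the knockout, against 5.72% of the genome, and 9.44% in the control, against 4.87% of the genome. The genome length used here includes assembly gaps. The PTGS2 and EDNRB spans in both lists and the CCND2 span in the control lay below the genome share. The peaks of the spans were longer than the list medians, with a median length of 656.5 bp in the knockout and 528.5 bp in the control, against 464 bp over the whole knockout list and 458 bp over the whole control list. Their median pileup was 49.5 in the knockout, 11.2 times the floor, and 28.5 in the control, 9.75 times the floor. Over the whole lists the medians were 8.14 floors in the knockout and 8.55 floors in the control. Strong peaks, taken as those with a −log10 q of at least 10, were 33 of 36 in the knockout (91.7%, against 74.5% of its list) and 25 of 34 in the control (73.5%, against 57.0% of its list). The member regions were thus longer and stronger than the average methylated region in both genotypes. Fewer methylated cells and less methylation per cell cannot be told apart in such bulk samples.

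The spans differed widely among themselves. HIC1 was the most covered, with 32.8% of its 10 kb under peaks in the knockout and 27.9% in the control. GSTP1 was covered over 30.9% in the knockout and 18.9% in the control. RASSF1 was covered over 28.5% in the knockout and 16.8% in the control, and CDKN2A over 26.0% in the knockout and 22.0% in the control. The next below them, APC, RARB and AOX1, were covered over 9.56% to 15.0% in the knockout and 7.84% to 14.2% in the control. Of all windows of the same length tiled over the genome, 3.92% were covered as much as the HIC1 span in the knockout and 4.17% in the control, and for CDKN2A the shares were 5.15% in the knockout and 5.43% in the control. CCND2 and PTGS2 were sparsely covered, CCND2 with 6.70% in the knockout and 2.59% in the control, and PTGS2 with 5.37% in the knockout and 3.49% in the control. Of the 9 spans with peaks, AOX1 was the only one less covered in the knockout, with 13.0% against 14.2% in the control. Covered length is not scaled for depth, and the knockout had the higher floor. The genome as a whole was also covered more in the knockout, with 5.72% against 4.87% in the control.

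**Figure D1:**
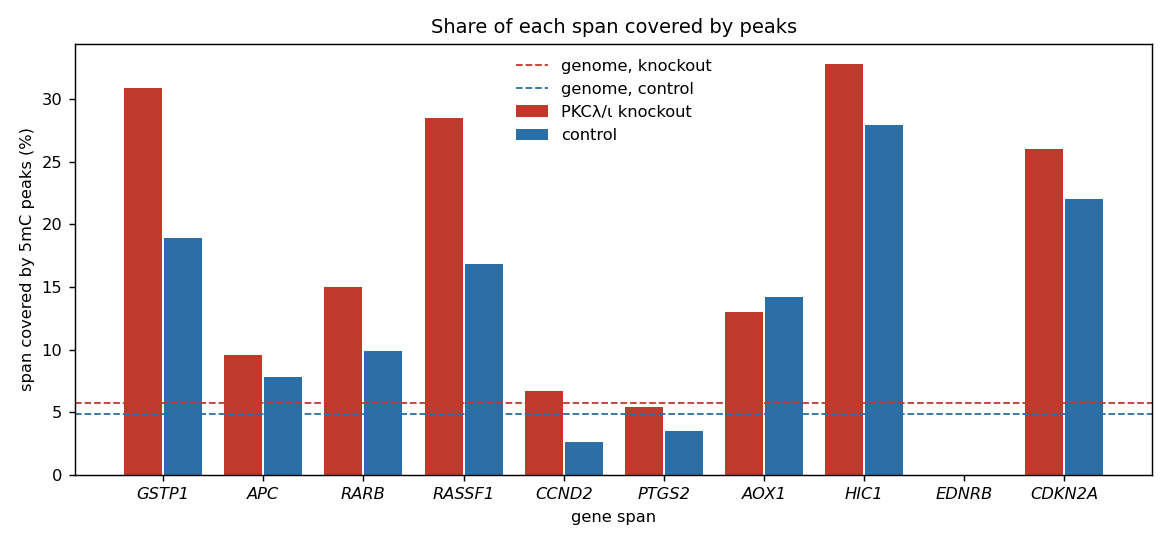
Percent of each gene span covered by 5mC peaks in the PKCλ/ι knockout (red, left) and control (blue, right) libraries, 1 library each, with dashed lines for the genome-wide percent. HIC1, GSTP1, RASSF1 and CDKN2A stand highest, EDNRB has no bar, and only AOX1 is lower in the knockout. The percentages are not scaled for depth, and the genome-wide percent is also higher in the knockout.

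GSTP1 encodes a glutathione S-transferase that detoxifies electrophiles. Its span on chromosome 11, from 67.348 to 67.357 Mb, held 3 peaks in each list. In the knockout a single peak of 2075 bp ran from 67350384 to 67352458 with a pileup of 105 (85.9 to 127, exact 95% Poisson interval), 23.7 times the floor. The control had a pair of shorter peaks in the same stretch, one from 67350456 with a pileup of 29, or 9.92 floors, and one from 67351417 with a pileup of 42 (30.3 to 56.8), or 14.4 floors. The knockout peak was longer than 98.6% of its list, and its pileup exceeded 98.8% of it. With overlapping peaks merged into 1 region, the highest pileup of the knockout over that of the control was 1.65-fold after depth scaling (1.15 to 2.42, exact 95% Clopper-Pearson interval). The summits lay at 67351430 in the knockout and 67351810 in the control, so this ratio sets pileups at separate places side by side. At the left end of the span the only one-to-one pair had pileups of 32 in the knockout and 23 in the control, a log2 ratio of -0.12 (-0.94 to 0.72). The interval of the ratio thus lay wholly above equality in the broad region and included equality at the left end. Intervals of pileups and of their ratios here and below cover counting error only.

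AOX1, which encodes an aldehyde oxidase of drug and aldehyde metabolism, had 1 peak in each list in its span from 201.447 to 201.456 Mb. It ran from 201450420 to 201451586 on chromosome 2 in the knockout with a pileup of 93 (21.0 floors), and from 201450388 to 201451664 in the control with a pileup of 51 (17.4 floors). The log2 ratio was 0.27 (-0.24 to 0.79), a difference within counting error. The summits lay 263 bp apart, against a median shift of 40 bp over all pairs. The AOX1 region was thus among the strong peaks of both genotypes, with pileups above 97.7% of the knockout list and 95.7% of the control list. The local background moved more than the pileup, at 2.56 floors in the knockout and 1.33 floors in the control. The authors' fold enrichment, which divides by that background, was accordingly 7.64 in the knockout and 10.6 in the control.

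PTGS2 encodes cyclooxygenase-2, the inducible enzyme of prostaglandin synthesis. In its span from 186.640 to 186.655 Mb 1 peak was shared, with a pileup of 43 (9.72 floors) from 186643989 on chromosome 1 in the knockout and 38 (13.0 floors) from 186643995 in the control. The log2 ratio of -0.42 (-1.08 to 0.25) did not exceed counting error, and the 49 pairs within 1 Mb of the span also had a median of -0.24. A second peak, from 186649171 to 186649550 with a pileup of 32, was found in the knockout only.

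APC encodes the scaffold of the complex that degrades β-catenin, and so restrains Wnt signalling. Its span on chromosome 5, from 112.040 to 112.078 Mb, held 6 peaks in each list, all in one-to-one pairs. The strongest pair ran from 112073139 to 112074215 in the knockout with a pileup of 83 (66.1 to 103), 18.8 floors, and from 112073168 to 112073977 in the control with a pileup of 41 (29.4 to 55.6), 14.0 floors. The log2 ratio of pileup was 0.42 (-0.14 to 1.00). The background of this pair was at the floor in the knockout and at 2.03 floors in the control, and the authors' fold enrichments were 15.5 in the knockout and 6.06 in the control, a log2 ratio of 1.36. The knockout fold exceeded 99.7% of its list, while the control fold exceeded 61.4% of its own. Just to the left, the pair from 112072251 had pileups of 49 in the knockout and 23 in the control, a log2 ratio of 0.49 (-0.25 to 1.28). The remaining 4 pairs had pileups of 20 to 33 in the knockout and 15 to 22 in the control, with log2 ratios from -0.53 to 0.45. No APC pair differed by more than counting error.

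RARB encodes retinoic acid receptor beta, a ligand-dependent transcription factor. A single region was methylated in its span on chromosome 3, from 25.466 to 25.474 Mb. It measured 1201 bp from 25469196 in the knockout, with a pileup of 58 (13.1 floors), and 792 bp from 25469247 in the control, with a pileup of 28 (9.58 floors). The ratio was 1.37-fold (0.858 to 2.23), which includes no difference.

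RASSF1 encodes a Ras-association domain protein with roles in microtubule stability and Hippo signalling. Its span, from 50.365 to 50.381 Mb on chromosome 3, held 6 peaks in each list. At its right end the knockout peak from 50377633 to 50378824 had a pileup of 101 (82.3 to 123), 22.8 floors, and the control peak from 50378336 to 50378707 had a pileup of 28 (18.6 to 40.5), 9.58 floors. This pair was 2.38-fold higher in the knockout (1.56 to 3.76), rank 274 of 206556 pairs, and the knockout peak was 1192 bp long, against 372 bp in the control. The knockout summit, at 50377913, lay outside the control peak and 623 bp from its summit, against a median shift of 40 bp over all pairs, so the ratio sets pileups at separate places side by side. Immediately to the left, a knockout peak of 1541 bp with a pileup of 50 covered a pair of control peaks with pileups of 21 and 26, and the merged region had a log2 ratio of 0.35 (-0.37 to 1.09). The strongest control region of the span, from 50368649 in the knockout and 50368709 in the control, had a pileup of 104 (23.5 floors) in the knockout and of 57 (19.5 floors) in the control, a log2 ratio of 0.27 (-0.21 to 0.76). At the left end the direction turned, with pileups of 37 in the knockout and 33 in the control from 50366440, and of 39 in the knockout and 33 in the control from 50367843, log2 ratios of -0.43 and -0.36. Both of these intervals included 0.

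HIC1 encodes a zinc-finger transcriptional repressor and held the largest ratio among the members. All 5 pairs of its span, from 1.954 to 1.964 Mb on chromosome 17, had a higher depth-scaled pileup in the knockout. By the authors' fold enrichments 4 of them were higher, and the pair from 1954737 was lower, with 4.17 in the knockout and 5.62 in the control, a log2 ratio of -0.43. The pair from 1961090 to 1962010 had a pileup of 144 (121 to 170), 32.5 floors, in the knockout and of 27 (17.8 to 39.3), 9.24 floors, in the control. Its ratio was 3.52-fold (2.32 to 5.53), rank 18 of 206556 pairs. Its summits lay 186 bp apart, against a median shift of 40 bp over all pairs. The control peak was weak by fold enrichment, above 4.45% of its list. The pair from 1959501 to 1960294 had a pileup of 146 (33.0 floors) in the knockout, the highest of any member, and of 53 (18.1 floors) in the control, a ratio of 1.82-fold (1.32 to 2.54). The pair from 1962092 had pileups of 67 in the knockout and 28 in the control, a ratio of 1.58-fold (1.00 to 2.55). The outer pairs differed by less than counting error, with 66 in the knockout and 39 in the control from 1954737 (log2 ratio 0.16), and 97 in the knockout and 54 in the control from 1963842 (log2 ratio 0.25). The intervals above 0 were thus those of 3 adjacent regions, from 1959501 to 1962983, and the 647 other pairs within 1 Mb had a median log2 ratio of 0.07. The caller's background at the 3.52-fold pair was 3.25 floors in the knockout and 2.44 floors in the control, and the authors' fold enrichments were 9.44 in the knockout and 3.45 in the control, a log2 ratio of 1.45.

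CDKN2A encodes the cell cycle inhibitors p16INK4a and p14ARF from separate first exons. Its span on chromosome 9, from 21.966 to 21.998 Mb, held the most peaks, with 10 in each list. Per 10 kb it held 3.125 peaks in each list, fewer than HIC1 with 5.0, RASSF1 with 3.75 and GSTP1 with 3.33. The highest pileup was 104 (23.5 floors) in the knockout, in a peak of 2415 bp from 21967014 to 21969428, and 55 (18.8 floors) in the control, in a peak of 1340 bp from 21967780. The knockout peak covered this control peak and a smaller one with a pileup of 27, and the ratio of the highest pileups was 1.25-fold (0.893 to 1.77). The pair from 21970513 had pileups of 88 in the knockout and 39 in the control, a log2 ratio of 0.58 (0.02 to 1.16), the largest of the 8 one-to-one pairs of the gene. Its summits lay 209 bp apart, against a median shift of 40 bp over all pairs, so this ratio sets pileups at separate places side by side. The pair from 21976035 had pileups of 78 in the knockout and 46 in the control with both backgrounds near the floor, and the authors' folds of 14.4 in the knockout and 12.0 in the control exceeded 99.4% of the knockout list and 98.5% of the control list. The pair from 21973882 was the closest to no difference, with pileups of 37 (8.36 floors) in the knockout and 24 (8.21 floors) in the control. Among the 8 pairs 7 lay above 0, from -0.15 to 0.58, with a median of 0.16, and the 28 pairs within 1 Mb outside the span had a median of 0.13.

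CCND2 encodes cyclin D2, a partner of the kinases that drive G1 progression. Its span on chromosome 12, from 4.378 to 4.390 Mb, held 1 shared region, which was weak, with a pileup of 27 (6.10 floors) from 4378879 in the knockout and of 22 (7.53 floors) from 4378832 in the control, a log2 ratio of -0.30 (-1.17 to 0.58). By the authors' fold enrichments the direction turned, with 5.11 in the knockout and 3.83 in the control, a log2 ratio of 0.42, as the local background was 1.01 floors in the knockout and 1.71 floors in the control. A stronger peak from 4381921 to 4382387, with a pileup of 40 (9.04 floors), was found in the knockout only, and with the highest pileup of the span in each list the log2 ratio was 0.26.

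EDNRB encodes the endothelin B receptor, and its span from 78.488 to 78.552 Mb on chromosome 13 held no peak in either list. The nearest peaks lay 42216 bp to the right of the span in the knockout, with a pileup of 28, and 42206 bp to the right in the control, with a pileup of 21. To the left they lay 145126 bp away in the knockout and 135245 bp away in the control. Of 48339 windows of that length tiled over the genome, 30.9% held no peak in either list, assembly gaps included. The lists thus gave no methylated region for this gene, although it belongs to the set of genes known for hypermethylation, and a level below the caller's threshold was not listed. Whether the lists used here are complete over this stretch could not be checked.

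**Figure D2:**
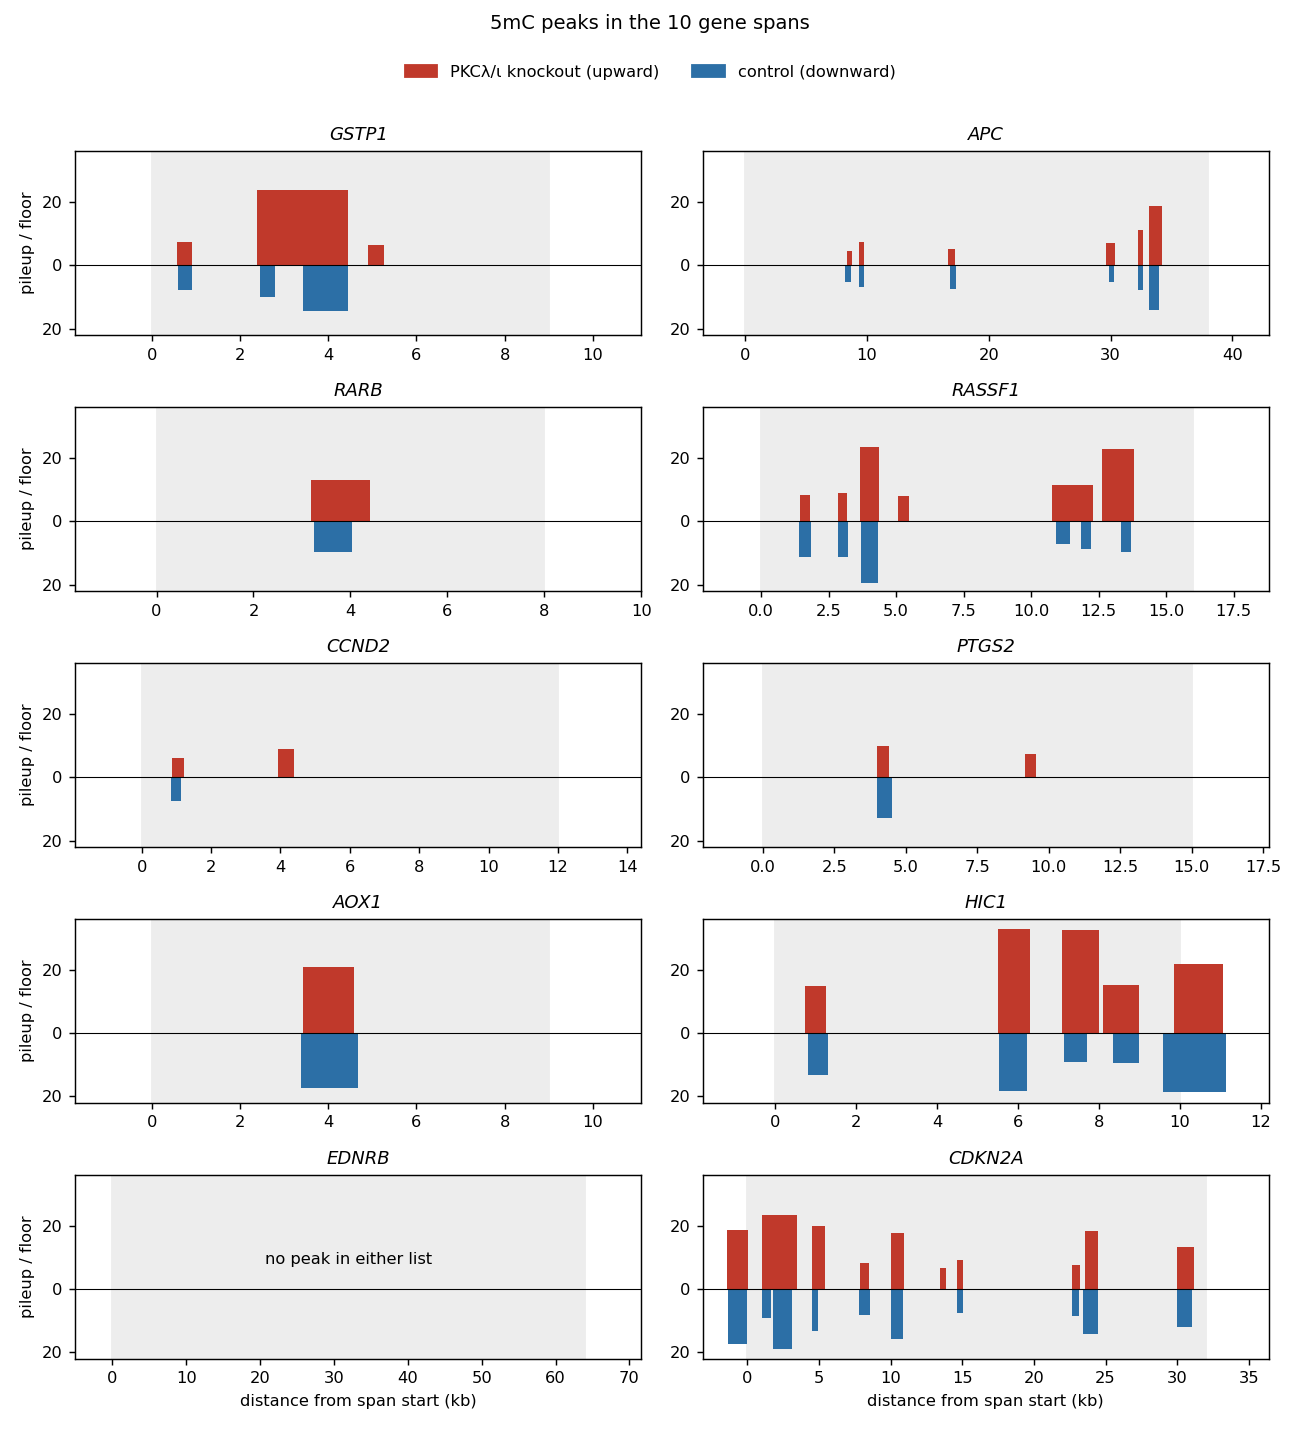
Peaks of the knockout (red, upward) and control (blue, downward) in each span, by distance from the span start in kb, with the span shaded. Bar width is the peak's length and bar height its summit pileup divided by the floor; the HIC1 peaks reach 33.0 floors in the knockout and 18.5 floors in the control, and broad knockout peaks of GSTP1, RASSF1 and CDKN2A lie over pairs of control peaks.

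Single knockout peaks lying over several control peaks were found at GSTP1, RASSF1 and CDKN2A, 3 of 31 merged regions that both lists shared. Over the genome 8134 of 220001 shared regions had this form, or 3.70%, and their median log2 ratio was 0.14, against 0.04 for all shared regions. The control had the lower floor, and the part of its lower depth in the gaps between its peaks was not tested.

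No peak of the spans was found in the control only, and 5 were found in the knockout only. The knockout-only peaks were 13.9% of the 36 knockout peaks of the spans (4.67 to 29.5, exact Clopper-Pearson interval), against 23.9% of the whole knockout list. The control-only peaks were 0 of 34, which allows a share of up to 10.3% by the same interval, against 12.1% of the whole control list. Among strong peaks the knockout-only share was 15.2% in the spans and 14.9% in the whole list. The share of knockout-only peaks in the spans was thus below that of the list over all peaks and near it among strong peaks. The intervals of these shares treat peaks as independent, which neighbouring peaks of 1 gene are not. The knockout-only peaks lay in the GSTP1, RASSF1, CCND2, PTGS2 and CDKN2A spans, 1 in each. Their pileups were 28 at GSTP1 (from 67352911), 35 at RASSF1 (from 50370085), 40 at CCND2, 32 at PTGS2 and 29 at CDKN2A (from 21979460). Scaled to the control depth these are 18.5 to 26.4 fragments. The lowest pileup in the control list was 10, but the pileup that a call needs rises with the local background. In the knockout that background was 1.08 to 1.92 floors at these peaks. With the knockout pileup and background both scaled to the control depth, the −log10 p of these peaks was 8.16 to 10.2. The lowest −log10 p in the control list was 3.24. The control's own background at these places was not available. At GSTP1, RASSF1 and CDKN2A a control peak lay within 1 kb, at 455, 754 and 754 bp. At CCND2 the nearest control peak was 2779 bp away and at PTGS2 4654 bp away.

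Of the 28 one-to-one pairs in the spans, 2 were more than 2-fold higher in the knockout relative to the median of all pairs, and 0 were more than 2-fold lower. These were the HIC1 pair from 1961090 and the RASSF1 pair from 50377633. Among all 206556 pairs of the genome 0.374% were that much higher and 0.200% that much lower. Both called pairs had a high knockout background, 3.25 floors at HIC1 and 2.77 floors at RASSF1. Among the 13244 pairs of the genome with a knockout background of at least 2.5 floors, 2.05% were that much higher and 0.0378% that much lower. This cut uses the knockout background alone, and so favours pairs whose background was higher in the knockout than in the control. Their median log2 ratio of background was 0.54, against 0.03 over all pairs, so these shares are not those of an even-handed set. With merged regions the same pairs passed, against 0.415% of all shared regions higher and 0.193% lower. By the ratio of the authors' fold enrichments the RASSF1 pair no longer passed, with a log2 ratio of 0.80, and the leading APC pair did. The RASSF1 peaks also did not reach 50% reciprocal overlap. Over all 28 pairs the median log2 ratio was 0.21 with quartiles of -0.13 and 0.45, and 20 lay above 0. Over the genome the median was 0.04 with quartiles of -0.18 and 0.26, and 54.6% lay above 0. Without HIC1 the median of the other 23 pairs was 0.16. Pairs of 1 gene share their neighbourhood and are not independent, and scaling by the floors removes any change common to the whole genome.

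**Figure D3:**
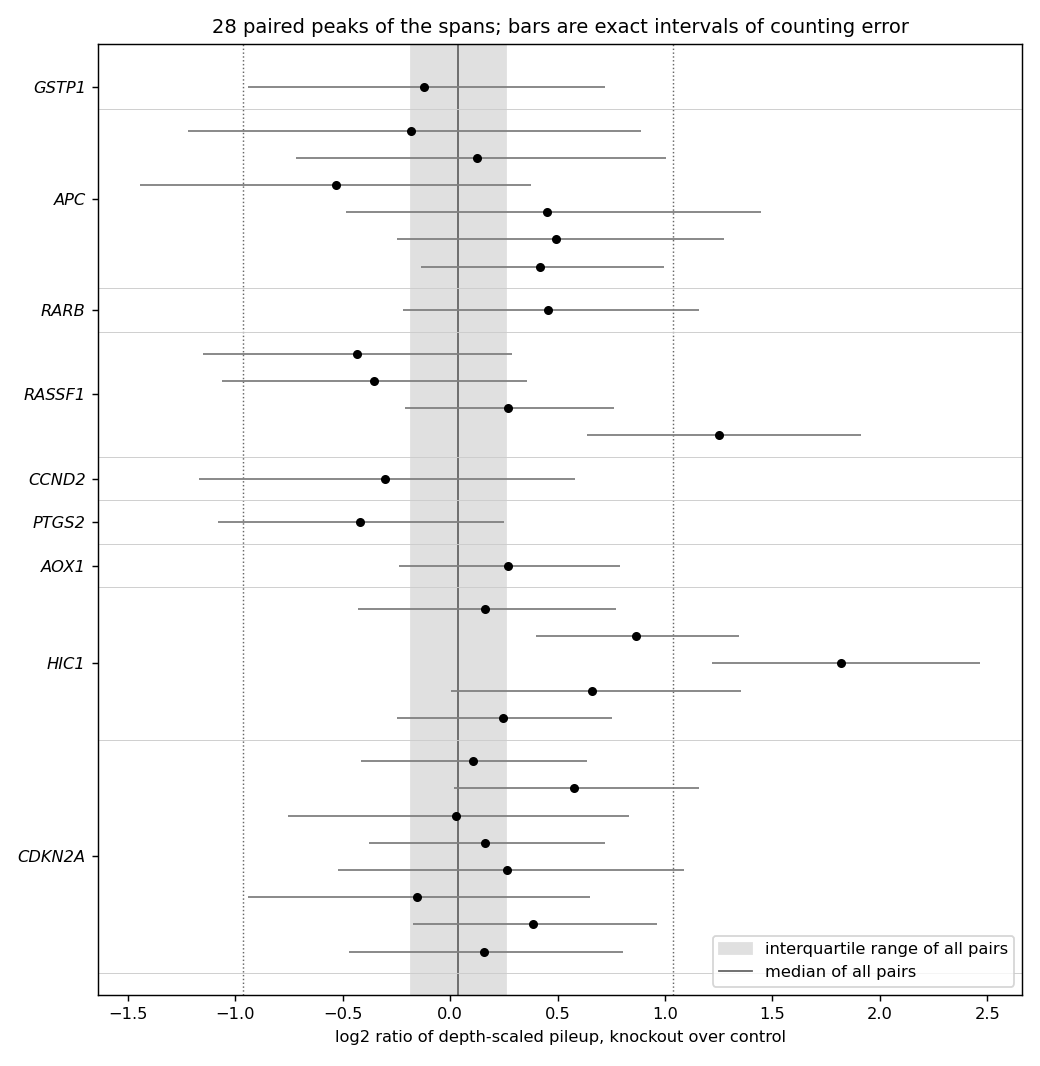
Log2 ratios of depth-scaled pileup (knockout over control) of the 28 one-to-one pairs, grouped by gene and ordered by position from top to bottom, with exact 95% intervals of counting error. The grey band is the interquartile range of all pairs of the genome, and dotted lines mark 2-fold from their median; the HIC1 pair at 1.82 and the RASSF1 pair at 1.25 lie beyond the right one.

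The local background and the pileup moved the same way at some pairs and opposite ways at others, and their association was not tested. At the leading APC pair the background log2 ratio was -1.02 with a pileup ratio of 0.42. At the PTGS2 pair it was 0.38 with a pileup ratio of -0.42. The median log2 ratio of the background was 0.17 over the 28 pairs and 0.03 over all pairs. At the HIC1 pair from 1961090 the background ratio was 0.41 and at the RASSF1 pair from 50377633 it was 0.54, less than their pileup ratios of 1.82 and 1.25. At the HIC1 pair from 1959501 it was -0.01, with a pileup ratio of 0.86. The part of base composition, copy number or the inputs in these ratios was not tested.

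**Figure D4:**
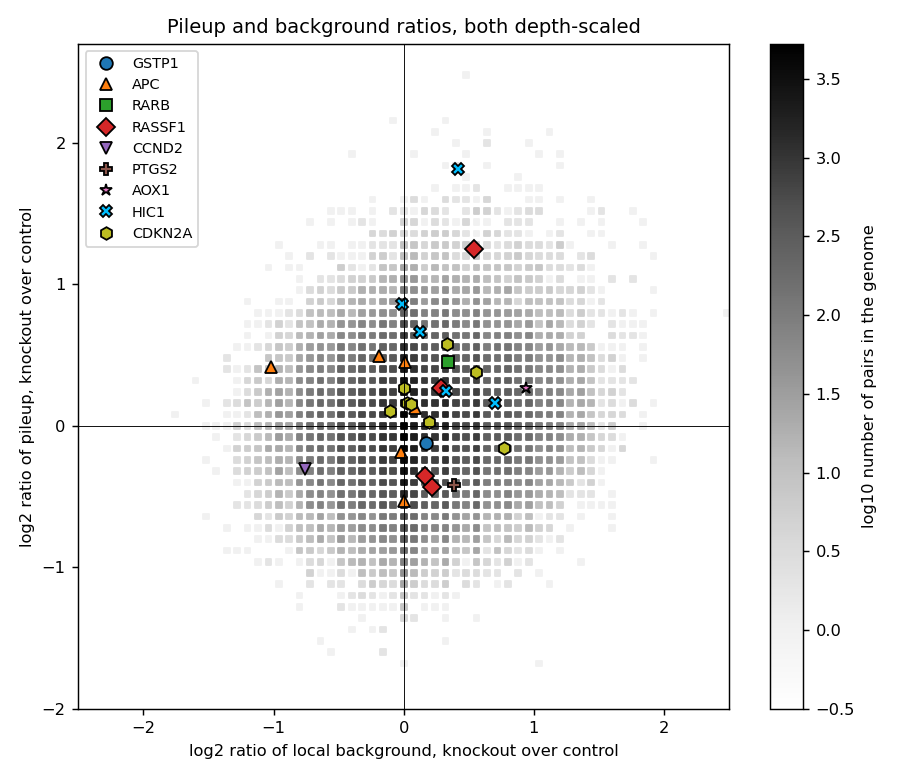
Log2 ratio of pileup (vertical) against log2 ratio of local background (horizontal), knockout over control and both scaled by the floors, for member pairs (coloured symbols) and all pairs of the genome (grey squares, shaded by log10 number). The HIC1 pair at 1.82 and the RASSF1 pair at 1.25 are the highest member points.

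The span borders decided few members. A CDKN2A pair reached into its span by 34 bp in the knockout and 7 bp in the control. It had pileups of 83 in the knockout and 51 in the control, and was the leading pair of that gene by the summed level. A HIC1 pair, from 1963842, had its summits outside the span. Just beyond the borders, the nearest peaks of GSTP1 lay 46 bp to the left in the knockout, with a pileup of 41, and 105 bp in the control, with a pileup of 30. Next to RASSF1 a region 4666 bp to the left had a pileup of 126 in the knockout, and one 4588 bp to the left had 70 in the control, higher than any RASSF1 member in either list.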

How the data were processed

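The labels describe 4 libraries of C42B cells, 1 input and 1 5mC immunoprecipitate for each genotype, and the immunoprecipitates were compared through 1 peak list each. Alignment with BWA to hg19 and peak calling with MACS2 are named in the submitters' processing notes, with no version or setting. The file headers name a pileup column, and this deposited signal was taken here as the fragment count at a summit, unscaled between libraries. The authors' fold enrichment divides the pileup by a local background as a ratio, and the deposited −log10 p and −log10 q come from the caller.

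The local background was taken back from the fold (pileup and 1 over fold, less 1). With it a Poisson upper tail differed from the listed −log10 p by at most 0.000573. Pileups were scaled by the lowest background of each list, since total reads were not listed. In a pair each peak overlapped a single peak of the other list, by at least 1 bp. Merged regions were chains of overlapping peaks. The leading pair of a gene had the highest summed scaled pileup. All 10 genes were named, with every list-only peak of −log10 q of at least 10 and every pair over 2-fold. Intervals of pileups, ratios and shares are exact at 95%. Those of pileups and ratios cover counting error only, and those of shares treat peaks as independent. With 1 library per group there is neither a test nor a p-value for genotype. The pair and interval functions were tested on simulated data. The members and the comparisons were chosen with earlier results of these data known. No hg19 annotation was used. Promoter sequences came from RefSeq (GRCh38.p14). Python 3.11.15, numpy 2.4.6, pandas 2.3.3, scipy 1.17.1 and matplotlib 3.10.9 were used.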

Additional observations from a re-analysis of the deposited data

How the results depend on the processing

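Of 134 alternatives over 20 results, 126 stayed within 1.5 times the reported count or length or within the 95% interval of the reported ratio, and 8 left these bounds. The 126 include alternatives that could not move a value. For a single one-to-one pair, merged regions and the highest overlapping control peak return the same ratio, and 50% reciprocal overlap can only drop the pair. The intervals of single ratios are also wide bounds. No ratio whose interval excluded equality changed sign. Leading pairs within counting error changed sign at GSTP1, CCND2, AOX1 and CDKN2A. Knockout-only peaks of the spans numbered 1 with a fold of at least 5 and 2 with no control peak within 1000 bp, and 5 with the knockout scaled to the control depth. Control-only peaks numbered 1 when only as many knockout peaks, by −log10 q, were kept as the control has, and 5 with at least 50% reciprocal overlap. Pairs over 1.5-fold higher numbered 4, 3 of them at HIC1. The fold, distance, list length and overlap rules are stricter by construction, and 1.5-fold is a looser one. The median log2 ratio of 0.21 ran from 0.09, centred on pairs within 1 Mb, to 0.32, with the highest pileup of each span. By fold enrichments the leading pair had a log2 ratio of 1.36 at APC and -0.48 at AOX1, against pileup ratios of 0.42 and 0.27. At CCND2 it was 0.42 by fold enrichments, against -0.30. By the highest pileup of the span GSTP1 had 0.72, against -0.12, and CCND2 0.26. Centred on pairs within 1 Mb, CDKN2A had -0.03, against 0.10. The pair of RASSF1 over 2-fold did not reach 50% reciprocal overlap, and had 1.06 when centred on pairs within 1 Mb. At HIC1 the corresponding pair ran from 1.45 to 1.82 over its alternatives. Merged regions, the highest overlapping control peak and all alternatives for pairs over 2-fold were chosen after the data were seen. The lower floor of the control limits what a peak missing from the control list can show. No paired analysis was possible because there was 1 library per genotype.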
